A study of Mus musculus with 9 samples.

Results

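The leukocyte integrin genes described here are the 9 rows of the deposited count table with the symbols Itgal, Itgam, Itgax, Itgb2, Itga4, Itga5, Itga6, Itgb1 and Itgb7, of 24421 symbols in all. They were taken by name, and all 9 passed the low count filter that left 13270 genes to test. The libraries come from lineage-depleted bone marrow of C57BL/6 wild-type (WT) mice and of Tet2-/-Flt3ITD mice, which lack the DNA demethylase Tet2 and carry an internal tandem duplication in the receptor Flt3. The cells were expanded for 5 days in IL-3, IL-6 and SCF. Each of 3 groups has 3 libraries: WT cells given vehicle, mutant cells given vehicle, and mutant cells given the drug SHP099, which blocks the phosphatase SHP2 (Ptpn11) allosterically, for 24 h. All samples carry the strain label C57BL/6, and the labels give no age, sex or dose. The cells are therefore cytokine-expanded cultures rather than fresh marrow, there is no SHP099-treated WT group, and mice with only 1 of the alleles were not analysed here.

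Integrins are cell surface receptors made of 1 alpha and 1 beta chain, which bind matrix proteins or molecules on other cells once proteins inside the cell have switched them to an active shape. The beta2 chain Itgb2 (CD18) is restricted to leukocytes and pairs with Itgal (CD11a) to form LFA-1, with Itgam (CD11b) to form Mac-1 and with Itgax (CD11c). The widely expressed beta1 chain Itgb1 (CD29) pairs with Itga4, Itga5 and Itga6 to form VLA-4, which binds Vcam1 and fibronectin, VLA-5, which binds fibronectin, and a laminin receptor. Itgb7 pairs with Itga4 in a receptor for the gut addressin Madcam1. In bone marrow these receptors hold stem cells and progenitors in the niche and carry mature granulocytes and monocytes into tissue.

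Itgam and Itgax are neighbours on mouse chromosome 7 (GRCm38), on the plus strand, with Itgam at chr7:128062640-128118491 and Itgax at chr7:128129547-128150657. The gap between them is 11055 bases, yet their transcript levels stood far apart in these cells. Their upstream sequences are shown as the 250 bases before each RefSeq start (GRCm38.p6, plus strand, 5′ to 3′). Capitals mark matches to GAGGAA, a core of the site bound by the myeloid factor PU.1, on either strand (TTCCTC on the printed strand is a match on the other one).
Itgam, chr7:128062390-128062639: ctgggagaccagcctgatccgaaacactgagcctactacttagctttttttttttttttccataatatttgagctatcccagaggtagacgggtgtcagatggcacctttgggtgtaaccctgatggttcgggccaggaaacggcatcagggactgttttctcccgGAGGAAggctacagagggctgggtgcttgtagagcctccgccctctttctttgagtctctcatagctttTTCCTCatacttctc
Itgax, chr7:128129300-128129549: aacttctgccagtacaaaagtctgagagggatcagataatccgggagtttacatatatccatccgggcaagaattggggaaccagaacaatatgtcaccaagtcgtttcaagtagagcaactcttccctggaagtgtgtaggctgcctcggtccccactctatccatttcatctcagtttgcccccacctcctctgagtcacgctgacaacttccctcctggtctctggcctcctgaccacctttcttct
The Itgam window held the GAGGAA letters at -84 and -15 from the start, and again at 32 bases past it in the 300-base RefSeq window. The Itgax window held none. RefSeq promoter windows were at hand for 6 of the 9 genes (Itgam, Itgax, Itga4, Itga5, Itgb1 and Itgb7), of which 4 held GAGGAA on either strand, against 28.3% of all 32851 windows of the same length. Other short motifs were searched too. The Itgax window held the RUNX core TGTGGT at 13 and the GATA core AGATAA at -217, which the Itgam window lacked. The Itgam window held an Sp1 GC box (GGGCGG on the other strand) at -47, which the Itgax window lacked. That box was in 4 of the 6 windows, against 35.7% of all. The letters describe the windows and were not tested against expression.

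The other genes lie at chr7:127296260-127335138 (Itgal), chr10:77530252-77565708 (Itgb2), chr2:79255426-79333123 (Itga4), chr2:71745616-71858416 (Itga6), chr8:128685654-128733200 (Itgb1), and, on the minus strand, chr15:103344286-103366763 (Itga5) and chr15:102215995-102231944 (Itgb7). Levels are given as CPM (counts scaled to a common library size) after TMM scaling, and, for comparisons between genes, as TPM (the same per length) over the longest coding transcript. Library totals ran from 27242168 to 45810089 counts, so that every member except Itgax had at least 2034 reads in every library, and Itgax had 158 to 354. Tet2, whose reads outside the deleted part would still be counted, was at 33.2 ± 1.48 CPM (SD, n = 3) in WT, 15.5 ± 1.30 CPM in mutant vehicle and 12.4 ± 1.28 CPM in mutant SHP099 libraries. SHP099 replicate 3 stood apart in its ribosomal RNA transcript Rn45s, which took 4.33% of its counts against 0.276% to 0.734% in the other libraries. T and NK cell markers summed to 0.154 to 0.647 CPM over all libraries, with Cd8b1 at 0 counts throughout. B cell markers summed to 6.85 to 10.6 CPM, most of it from Cd79b (group means of 6.84, 7.97 and 8.86 CPM), with Pax5 at 0 counts throughout. Neutrophil precursor genes such as Mpo and Elane summed to 12738 to 21360 CPM.

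Per transcript length, Itgb2 was the most abundant of the 9 in every group, at 454 ± 54.0 TPM in WT, 325 ± 8.53 TPM in mutant vehicle and 360 ± 25.0 TPM in mutant SHP099 libraries (SD, n = 3 each). Itgam came next, with mean levels of 295, 244 and 251 TPM in the same order of groups. In WT cells Itga6 (240 TPM) and Itgb1 (220 TPM) followed, and neither Itgam and Itga6 nor Itga6 and Itgb1 differed beyond the spread of their libraries. In both mutant groups Itgb1 stood above Itga6, at 206 against 127 TPM with vehicle and 192 against 126 TPM with SHP099, without overlap. The order then ran Itgb7, Itgal, Itga5, Itga4 and Itgax in all 3 groups. Itgb7 and Itgal overlapped in WT and mutant vehicle cells, where they had mean levels of 83.1 and 71.9 TPM and of 74.5 and 70.8 TPM. Itgax, a marker of dendritic cells and some macrophages, was lowest, at 4.36, 4.32 and 3.30 TPM. The order from Itgam to Itgb7 depends on the length used. Over the exon union, which for Itga6 is 9025 bases against 4310 for its longest coding transcript, Itga6 was at 163 TPM against 292 TPM for Itgb1 in WT cells, and in both mutant groups it was below Itgb7. Over the median coding transcript Itgb7 came before Itgam in all 3 groups, at 332 against 212 TPM in WT cells; that median is 430.5 bases for Itgb7 and 4175 for Itgam. Itgb2 came first, and Itgal, Itga5, Itga4 and Itgax last, over each of the 3 lengths.

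**Figure D1:**
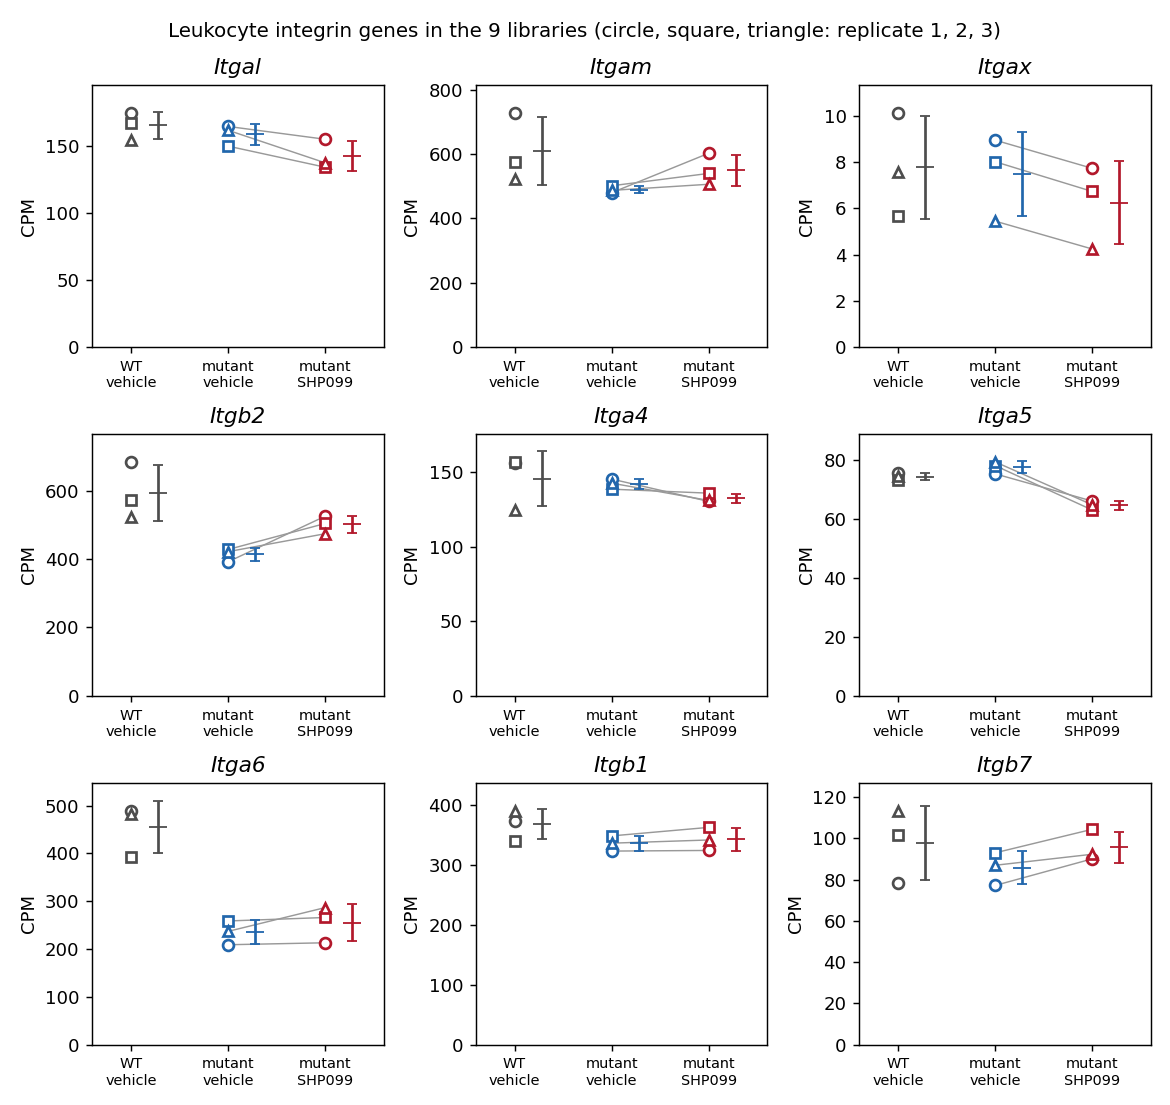
CPM (y axis, from 0) of each of the 9 integrin genes in the 9 libraries by group (x axis); open symbols are replicates 1, 2 and 3, the bar beside them is the mean ± SD, and grey lines join mutant libraries of the same number. Itga6 stands at 392 to 489 CPM in WT and at 209 to 287 CPM in the mutant libraries, while the 3 Itga5 libraries with SHP099 lie below the other 6.

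The first comparison asked how the mutant cells differ from WT cells, both given vehicle. Of the 9 members, 2 were lower in the mutant and none higher by edgeR's quasi-likelihood test at an adjusted p below 0.05, where 31.6% of all genes tested were called (14.7% lower and 16.9% higher). The laminin receptor chain Itga6 was 1.93-fold lower and the beta2 chain Itgb2 1.43-fold lower. The median log2 fold change was -0.13 over the 9 members and 0.02 over all genes tested. The 3 libraries of each group did not overlap for 3 members, all lower in the mutant, against 45.1% of all genes in either direction.

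Itga6 was at 489, 392 and 483 CPM in the WT libraries and at 209, 259 and 237 CPM in the mutant vehicle libraries. The mutant values all lay below the lowest WT value. The log2 fold change was -0.95 ± 0.12 (SE), with an edgeR adjusted p of 0.00084, and the call held in all 17 alternatives run, with adjusted p of at most 0.00438. Its partner Itgb1 was at 374, 341 and 391 CPM in WT and 324, 349 and 337 CPM in the mutant, and those libraries overlapped (log2 fold change -0.13 ± 0.06, edgeR adjusted p = 0.124). Within a library, Itga6 counts per kilobase of the longest coding transcript were 1.16, 1.02 and 1.09 times those of Itgb1 in WT cells and 0.572, 0.656 and 0.623 times in the mutant. Over the exon union the mean ratios were 0.556 in WT and 0.315 in the mutant. The Itga6 to Itgb1 ratio thus separated the groups without overlap; the exact two-sided permutation p was 0.1, the smallest that 3 against 3 allows, and 0.22 adjusted over 33 ratio tests.

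Itgb2 was at 684, 574 and 524 CPM in WT and at 392, 428 and 422 CPM in mutant vehicle libraries. All 3 mutant values lay below all 3 WT values. The log2 fold change was -0.52 ± 0.09 (edgeR adjusted p = 0.00245; at most 0.0102 in the 17 alternatives). Itgam, its main partner here, was at 727, 574 and 524 CPM in WT and at 479, 501 and 487 CPM in the mutant. Those groups did not overlap either, but WT replicate 1 was far above the other WT libraries and the difference missed the threshold (log2 fold change -0.31 ± 0.11, edgeR adjusted p = 0.0511). Without WT replicate 1 the Itgam log2 fold change was -0.16, and it passed in 10 of the 17 alternatives, DESeq2 among them, with adjusted p from 0.00685 to 0.132.

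Itgal, the LFA-1 alpha chain, was at 174, 167 and 154 CPM in WT and 164, 150 and 161 CPM in mutant vehicle libraries, which overlapped (log2 fold change -0.06 ± 0.07, edgeR adjusted p = 0.528). Itgal counts per kilobase were 14.5%, 16.5% and 16.8% of those of Itgb2 in WT and 23.8%, 19.9% and 21.8% in the mutant. The ratio was higher in every mutant library (exact permutation p = 0.1, adjusted 0.22). Itgam made up 78.1% to 81.2% of the summed CD11 transcripts (Itgal, Itgam and Itgax) in WT and 75.3% to 77.7% in the mutant. That was the largest share of the 3 alpha chains in both.

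The remaining members overlapped between genotypes. Itga4 was at 156, 157 and 125 CPM in WT and 146, 139 and 143 CPM in mutant vehicle libraries. Itga5 was at 75.6, 73.1 and 74.5 CPM and at 75.3, 78.1 and 79.4 CPM, Itgb7 at 78.4, 101 and 113 CPM and at 77.2, 93.0 and 87.0 CPM, and Itgax at 10.1, 5.68 and 7.55 CPM and at 8.94, 8.01 and 5.44 CPM. For these 4 genes no group stood apart, with log2 fold changes from -0.19 ± 0.12 for Itgb7 to 0.06 ± 0.04 for Itga5 and edgeR adjusted p of 0.218 to 0.875.

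Markers of several blood cell types moved in the same comparison, where 14.7% of all genes tested were lower and 16.9% higher. All 10 megakaryocyte markers were lower in the mutant, and their summed level was 3078 to 3872 CPM in WT, 1383 to 1897 CPM in mutant vehicle and 1705 to 2278 CPM in mutant SHP099 libraries. Of 11 neutrophil markers tested, 7 were lower and 1 higher in the mutant, with sums of 24180 to 30610 CPM in WT, 17653 to 18721 CPM in mutant vehicle and 25516 to 30502 CPM in mutant SHP099 libraries. Mast cell and basophil markers were lower for 8 of 12, and monocyte and macrophage markers lower for 2 and higher for 1 of 12. Of 8 erythroid markers tested, 7 were lower and 1 higher, and the globin genes Hba-a1 and Hbb-bs had 0 counts. The erythroid markers summed to 718 to 831 CPM in WT and to 717 to 751 CPM in mutant vehicle libraries. Most of that sum was Tfrc, the 1 higher gene, which rose from 569 ± 17.9 to 659 ± 34.9 CPM. The sum therefore hides the fall of the other markers, such as Gata1, from 86.6 ± 13.3 to 43.3 ± 5.50 CPM. The median log2 fold change of the 8 was -1.50. Of 7 eosinophil markers, 3 were lower and 1 higher, with sums of 555 to 628 CPM in WT and 229 to 291 CPM in mutant vehicle libraries. The part of these cell types in the lower Itga6, Itgb2 and Itgam was not tested, and in bulk RNA fewer cells of a type and less RNA per cell cannot be told apart.

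**Figure D2:**
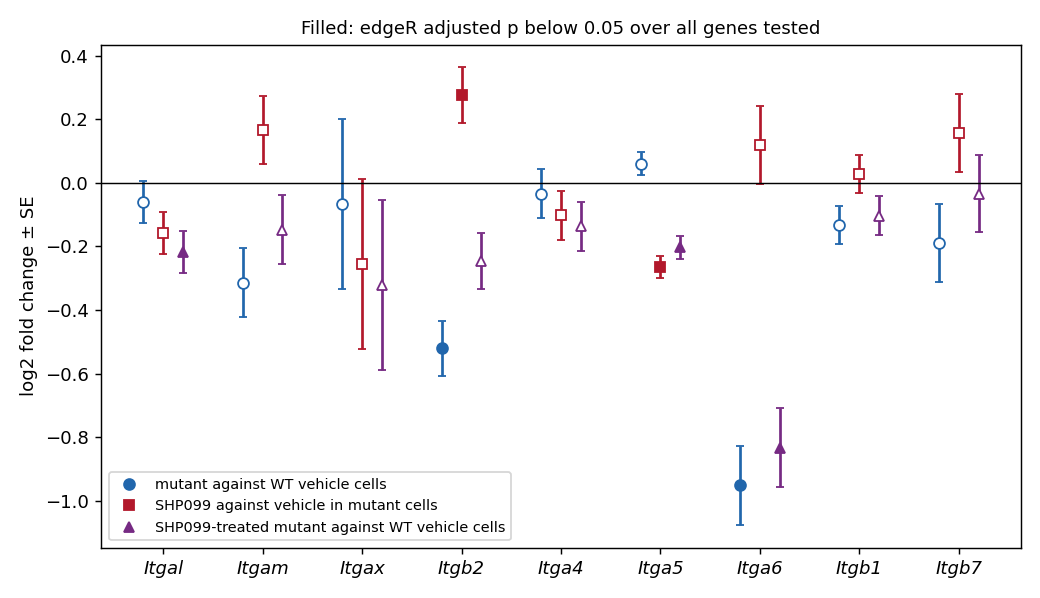
Log2 fold change ± SE (y axis) of the 9 integrin genes in the 3 comparisons (colour and symbol), with filled symbols where the edgeR adjusted p is below 0.05. Itga6 lies near -0.95 and -0.83 against WT, and Itgb2 falls on both sides of 0, at -0.52 for mutant against WT and 0.28 for SHP099 against vehicle.

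The second comparison asked what 24 h of SHP099 does to mutant cells. Itga5, the fibronectin receptor chain, was 1.20-fold lower and Itgb2 1.21-fold higher with the drug. These 2 members of 9 were called by the edgeR test, 1 in each direction, where 21.8% of all genes tested were called (8.81% higher and 13% lower). The median log2 fold change was 0.03 over the members and 0.00 over all genes. Groups did not overlap for 4 members (Itgam and Itgb2 higher, Itga4 and Itga5 lower), against 40.7% of all genes.

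Itga5 was at 75.3, 78.1 and 79.4 CPM with vehicle and at 66.1, 63.1 and 64.8 CPM with SHP099. All 3 treated values were below the 6 untreated ones, WT included. The log2 fold change was -0.26 ± 0.04 (edgeR adjusted p = 0.00115), and the call held in all 19 alternatives, with adjusted p of at most 0.0105. The difference was smaller, at -0.19, when the fit also corrected for transcript length and GC content (edgeR adjusted p = 0.00592). The Itga5 to Itgb1 ratio per kilobase was 0.203, 0.195 and 0.205 with vehicle and 0.177, 0.151 and 0.165 with SHP099, again without overlap (exact permutation p = 0.1, adjusted 0.22).

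Itgb2 rose from 392, 428 and 422 CPM to 525, 504 and 474 CPM. The groups did not overlap. The log2 fold change was 0.28 ± 0.09 with an edgeR adjusted p of 0.0493, close to the threshold. Leaving out WT replicate 2 or any of the 6 mutant libraries ended the call (adjusted p of 0.0572 to 0.146, log2 fold change 0.24 to 0.32), as did a correction for transcript length and GC content (0.0604). Itgam was at 479, 501 and 487 CPM with vehicle and 602, 540 and 506 CPM with SHP099, without overlap, but missed the threshold (log2 fold change 0.17 ± 0.11, edgeR adjusted p = 0.304).

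The replicate numbers pair vehicle and SHP099 libraries of the mutant, and a fit of those 6 libraries with the replicate block called 8 of the 9 members, where it called 42.8% of 13004 genes (21.5% higher and 21.3% lower). In that paired fit Itgb2 (edgeR adjusted p = 1.13e-05), Itgam (0.0053), Itgb7 (0.00266) and Itga6 (0.0334) were higher with SHP099. Itga5 (1.05e-05), Itgal (0.00156), Itgax (0.0184) and Itga4 (0.0373) were lower, and Itgb1 did not pass (0.594). Each of the 9 members moved the same way in all 3 pairs, which 63.6% of all genes tested did. Within pairs, log2 CPM of Itgb2 differed by 0.42, 0.24 and 0.17, that of Itga5 by -0.19, -0.31 and -0.29, and that of Itgal by -0.09, -0.16 and -0.23. The Itgam difference of 0.33 in pair 1 stood above those of 0.11 and 0.06 in pairs 2 and 3, and the Itga6 difference of 0.27 in pair 3 above 0.03 and 0.04 in pairs 1 and 2. The direction of Itga4 depends on the processing: its log2 fold change was -0.10 in both fits, and 0.14 (adjusted p = 0.00206) when the paired fit also corrected for length and GC content.

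**Figure D3:**
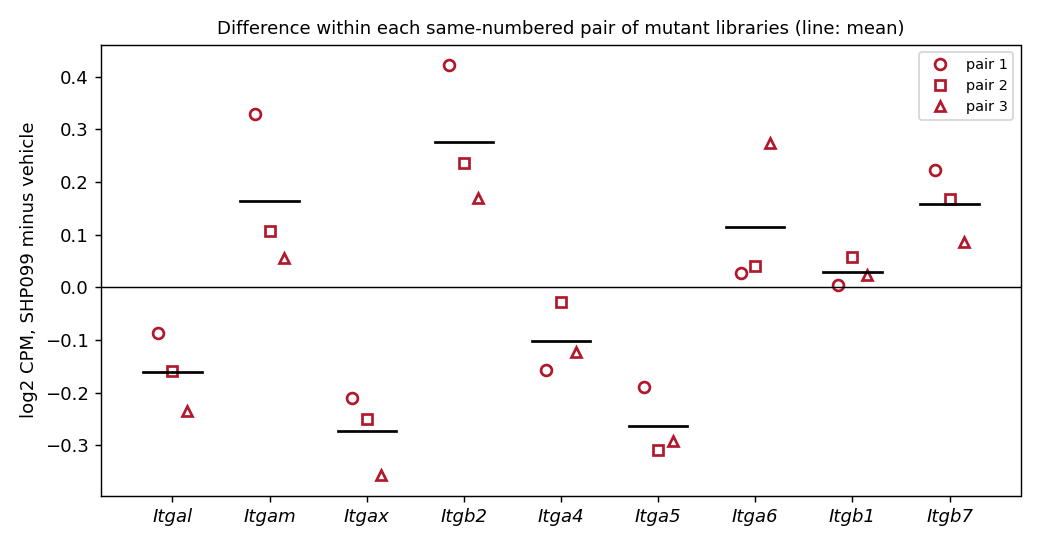
Difference in log2 CPM between the SHP099 and the vehicle library of the same number (y axis) for each integrin gene (x axis), with the 3 pairs as symbols and their mean as a line. Itgam, Itgb2, Itga6, Itgb1 and Itgb7 lie above 0 in all 3 pairs, and Itgal, Itgax, Itga4 and Itga5 below it.

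Among the beta2 alpha chains, Itgal was at 164, 150 and 161 CPM with vehicle and 155, 134 and 137 CPM with SHP099, which overlapped (log2 fold change -0.16 ± 0.07, edgeR adjusted p = 0.115). Relative to Itgb2 per kilobase, Itgal went from 23.8%, 19.9% and 21.8% to 16.8%, 15.1% and 16.5%, next to 14.5% to 16.8% in WT. Its share of the summed CD11 transcripts was 20.8% to 23.1% with vehicle and 18.0% to 19.4% with SHP099. Both measures separated the groups without overlap (exact permutation p = 0.1 each, adjusted 0.22). Itgax was at 8.94, 8.01 and 5.44 CPM with vehicle and 7.73, 6.73 and 4.24 CPM with SHP099, where libraries of the same number kept their order and the groups overlapped.

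Itga6 was at 213, 266 and 287 CPM with SHP099 and overlapped the vehicle libraries (log2 fold change 0.12 ± 0.12, edgeR adjusted p = 0.534). Its ratio to Itgb1 was 0.581, 0.648 and 0.742, below every WT value. Itgb1 itself was at 325, 363 and 342 CPM with SHP099. Itga4 was at 131, 136 and 131 CPM and Itgb7 at 90.1, 104 and 92.3 CPM. The Itga4 to Itgb7 ratio per kilobase was 0.518, 0.410 and 0.451 with vehicle and 0.398, 0.358 and 0.390 with SHP099, lower in each treated library (exact permutation p = 0.1, adjusted 0.22).

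Some markers of neutrophils, monocytes, mast cells and megakaryocytes were higher with SHP099. Of 11 neutrophil markers 4 were called higher and none lower, of 12 monocyte and macrophage markers 3 higher and none lower, of 12 mast cell and basophil markers 5 higher and none lower, and of 10 megakaryocyte markers 2 higher and none lower. In the paired fit those counts of higher markers were 11, 9, 9 and 9, and with the length and GC correction 1, 3, 4 and 1. Over all genes tested, 8.81% were called higher and 13% lower, and 21.5% and 21.3% in the paired fit. Of 8 erythroid and of 7 eosinophil markers tested, none was higher and 1 each lower (Tfrc and Epx). None of 6 neutrophil precursor markers was called. The paired fit called 5 erythroid markers higher and 1 lower, 1 eosinophil marker higher and 2 lower, and 3 precursor markers higher. Monocyte and macrophage markers summed to 2278 to 3106 CPM with vehicle and 4061 to 4610 CPM with SHP099. Their part in the higher Itgb2 was not tested. The Itga5 log2 fold change was -0.26 also without SHP099 replicate 3, the library high in Rn45s (edgeR adjusted p = 0.00744).

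**Figure D4:**
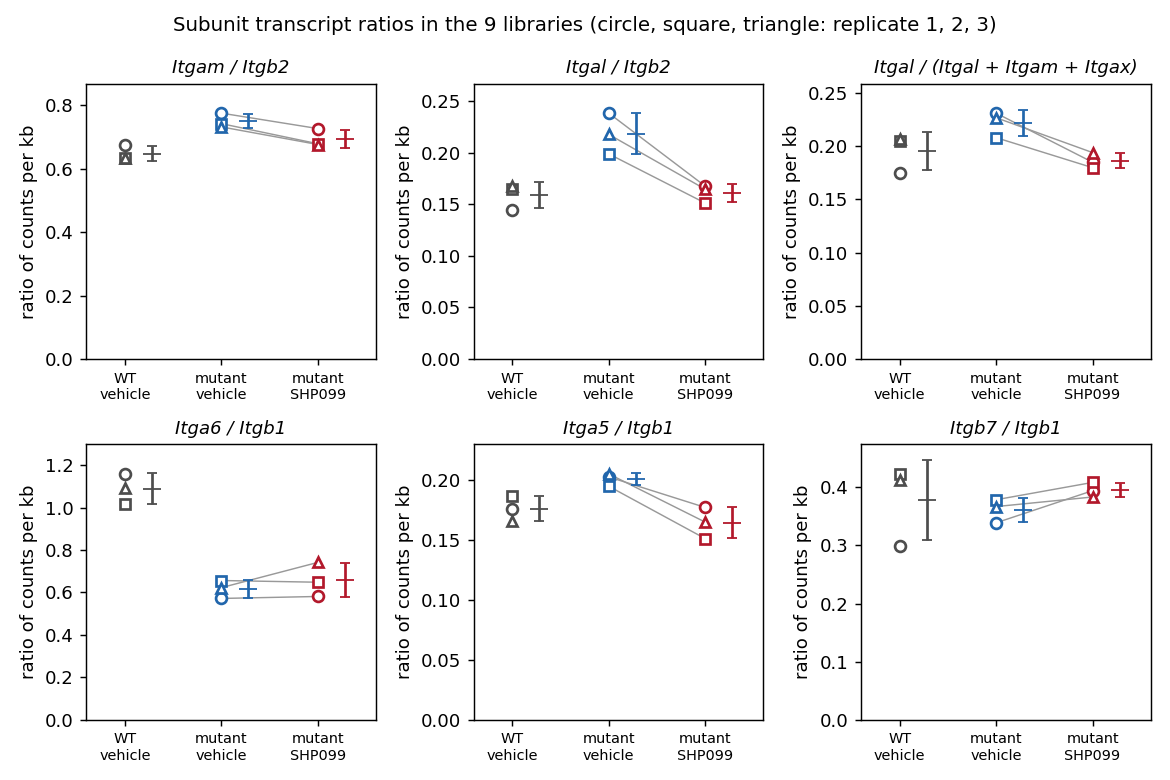
Ratio of counts per kilobase of 2 subunits, or share of Itgal in the CD11 sum (y axes, from 0), in each library by group (x axis); symbols are replicates, the bar is the mean ± SD and grey lines join mutant libraries of the same number. Over the longest coding transcripts, Itga6 per Itgb1 is above 1 in the 3 WT libraries and at 0.572 to 0.742 in the 6 mutant ones, and Itgal per Itgb2 is highest in the mutant vehicle libraries. The side of 1 depends on the length used: over the exon union the mean Itga6 per Itgb1 is 0.556 in WT.

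Set against WT vehicle, SHP099-treated mutant cells had 3 members called, all lower, where 31.7% of all genes were called and 16.3% were lower; this comparison shares its libraries with the other 2. The Itga6 log2 fold change was -0.83 ± 0.12 (edgeR adjusted p = 0.00154), beside -0.95 for the untreated mutant. For Itga5 it was -0.20 ± 0.04 (edgeR adjusted p = 0.00303), beside 0.06 for the untreated mutant. For Itgal it was -0.22 ± 0.07 (edgeR adjusted p = 0.0313), a call lost without WT replicate 1 or 2 or SHP099 replicate 2 or 3 (0.0761 to 0.105). Itgb2 and Itgam were at -0.25 ± 0.09 and -0.15 ± 0.11 and did not pass (edgeR adjusted p of 0.0574 and 0.326). Itgb2 passed in 4 of the 17 alternatives, with adjusted p from 0.0146 (DESeq2) to 0.156, and Itgam in none. With the length and GC correction the log2 fold change of Itga5 was -0.09 (adjusted p = 0.0809) and that of Itgal -0.14 (0.114), and both calls were lost. The groups did not overlap for Itga5 and Itga6, against 47.9% of all genes.

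Across the 9 libraries, Itgam and Itgb2 varied most alike among the members (Pearson r = 0.92 of log2 CPM), followed by Itga6 and Itgb1 (0.82), Itgb2 and Itga6 (0.76) and Itgal and Itga5 (0.72). Itga4 and Itgb7, which form a receptor, had r = -0.50. These values describe 9 libraries that share group, pairing and depth. Among 9582 genes with a mean of at least 5 CPM, those most like Itga6 were Nlk (r = 0.996), Gas2l1 (0.995) and Mfap3l (0.993). Those most like Itgb2 were Tesk2 (0.984), the haematopoietic cortactin relative Hcls1 (0.975) and Aldh3b1 (0.975), and those most like Itgam were the kinase Prkcb (0.965), Apobr (0.944) and Stxbp2 (0.944). For Itga5 they were Zfp142 (0.989), the mechanically gated channel Piezo1 (0.986) and Cpsf1 (0.983). The closest gene to Itgal was Haus5 (0.978), to Itga4 Cep89 (0.950), to Itgb7 Fam109a (0.939) and to Itgax the macrophage elastase Mmp12 (0.920).

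Some other integrin subunits, most of which make matrix and platelet receptors, were also called in the mutant. The list also holds the leukocyte chains Itgad (CD11d) and Itgae, neither of which was called in any comparison. Of 17 listed, 13 were tested, and 3 were lower and 2 higher than in WT with vehicle. Over all genes tested, 14.7% were lower and 16.9% higher in that comparison, and 13% lower and 8.81% higher with SHP099. The platelet receptor chains Itgb3 and Itga2b fell from 1079 ± 140 to 507 ± 93.4 CPM and from 801 ± 125 to 431 ± 50.4 CPM (log2 fold changes of -1.09 and -0.89, edgeR adjusted p of 0.0011 and 0.00101). The collagen receptor chain Itga2 fell from 20.4 ± 2.14 to 9.08 ± 1.77 CPM, while Itga1, another collagen receptor chain, rose from 14.3 ± 1.99 to 36.6 ± 7.64 CPM (edgeR adjusted p of 0.00177 and 0.000748). Itgb5 rose from 22.0 ± 2.97 to 33.6 ± 9.80 CPM (edgeR adjusted p = 0.0418, held in 3 of 9 fits that left out 1 library). Itga2b is itself one of the megakaryocyte markers above. With SHP099, 2 were lower and none higher: Itga10, at 3.14 ± 0.625 CPM with vehicle and 1.89 ± 0.108 CPM with the drug, and Itga8, which was below 1 CPM in every library. Those calls held in 6 and in 1 of the 9 fits that left out 1 library, and the paired fit called 3 of the 13 higher and 4 lower.

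The list of integrin activation holds genes that switch integrins on and some that hold them back, such as Sipa1, which turns Rap1 off, and filamin A (Flna), which competes with talin for beta tails. Of 18 tested, 8 were lower, Sipa1 and Flna among them, and 2 were higher than in WT, with a median log2 fold change of -0.12. Over all genes tested, 14.7% were lower and 16.9% higher. Fermt3, the kindlin of blood cells that binds beta chain tails, fell from 728 ± 17.7 to 539 ± 24.6 CPM (log2 fold change -0.43 ± 0.05, edgeR adjusted p = 0.000377). The GTPase Rap1b fell from 514 ± 17.4 to 380 ± 34.7 CPM and Skap1 from 4.47 ± 0.564 to 2.09 ± 0.551 CPM (edgeR adjusted p of 0.00286 and 0.00325). Tln2 rose from 2.33 ± 0.457 to 5.98 ± 0.214 CPM, far below its paralogue Tln1 at 1575 and 1374 CPM (edgeR adjusted p of 0.000366 and 0.0106). With SHP099, 3 of the 18 were lower and 1 higher, against 13% and 8.81% of all genes tested. Those counts became 4 and 8 in the paired fit, against 21.3% and 21.5% of all genes. Talin 1 (Tln1), the adaptor that links beta tails to actin, fell to 1056 ± 22.0 CPM (log2 fold change -0.38 ± 0.05, edgeR adjusted p = 0.000766), and the actin cross-linker Flna fell from 2001 ± 13.6 to 1638 ± 46.5 CPM (edgeR adjusted p = 0.0061). Rapgef1, an exchange factor for Rap1, fell from 145 ± 5.45 to 124 ± 2.49 CPM, and the adaptor Skap2 rose from 154 ± 8.82 to 187 ± 7.92 CPM (edgeR adjusted p of 0.0042 and 0.0221). The Skap2 call held in 6 of 9 fits that left out 1 library, and those of Tln1, Flna and Rapgef1 in all 9. With the length and GC correction, where 16.6% of all genes were called, Skap2 stayed called and the other 3 did not (log2 fold changes of -0.17, -0.10 and -0.09, adjusted p of 0.0528, 0.173 and 0.127). That correction newly called Sharpin lower (log2 fold change -0.16, edgeR adjusted p of 0.0242, against 0.0731 in the reported fit). The list then had 1 gene lower and 1 higher.

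Of 21 tested genes of the adhesion complex and its kinases, 12 were lower in the mutant and none higher, against 14.7% and 16.9% of all genes tested. The median log2 fold change was -0.25. Vinculin (Vcl) fell from 476 ± 21.2 to 348 ± 7.93 CPM, zyxin (Zyx) from 580 ± 18.4 to 378 ± 35.8 CPM and the integrin-linked kinase Ilk from 277 ± 16.1 to 196 ± 12.7 CPM (edgeR adjusted p of 0.000407, 0.000492 and 0.000492). Lims1, which binds Ilk, fell from 368 ± 12.7 to 278 ± 16.0 CPM (edgeR adjusted p = 0.000809). With SHP099, 2 were higher and 2 lower, against 8.81% and 13% of all genes tested. The paired fit called 10 higher and 3 lower, against 21.5% and 21.3% of all genes. Ilk rose to 230 ± 4.58 CPM, and Actn4 fell from 526 ± 13.4 to 453 ± 21.6 CPM (edgeR adjusted p of 0.0189 and 0.0114). Crkl fell from 83.5 ± 1.44 to 76.7 ± 1.64 CPM (edgeR adjusted p = 0.0215, held in 2 of 9 fits that left out 1 library). With the length and GC correction Ilk and Crkl lost their calls (adjusted p of 0.0601 and 0.239).

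**Figure D5:**
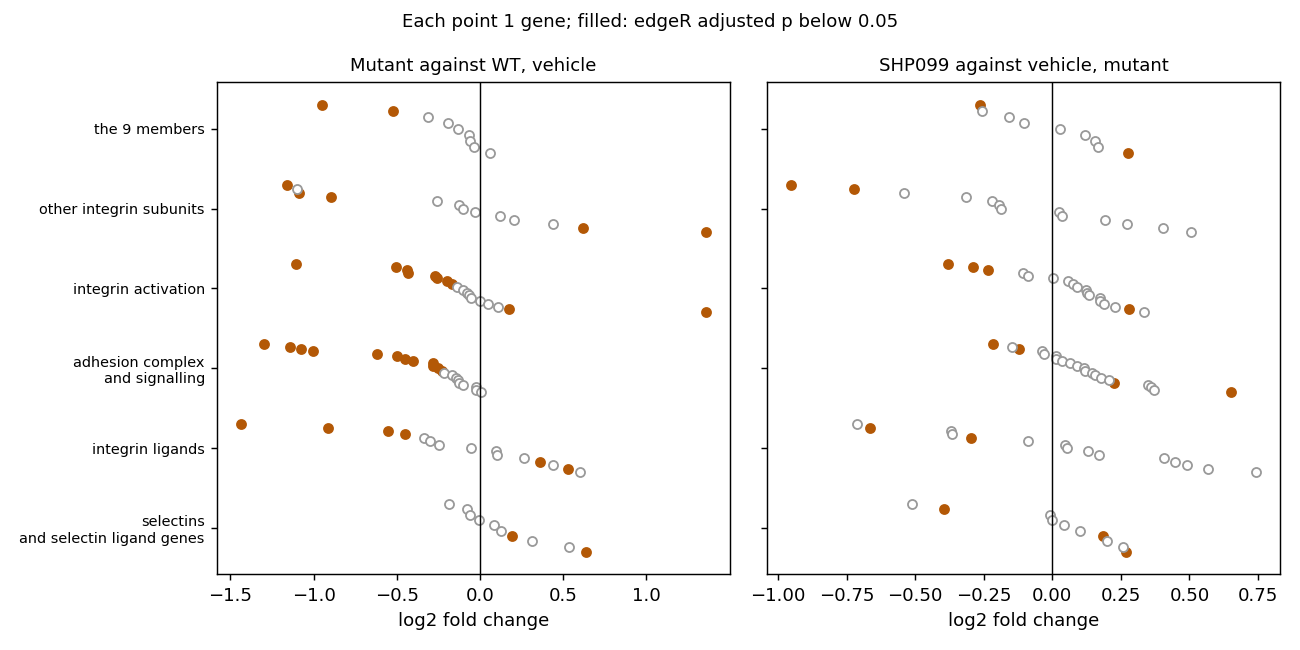
Log2 fold change (x axes, on different scales) of each tested gene (point) in the 9 members and 5 related gene lists (rows), for mutant against WT and for SHP099 against vehicle; filled points have an edgeR adjusted p below 0.05. In the adhesion complex row, 12 of 21 genes are called in the mutant and all lie below 0.

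Ligand genes of these integrins were in part expressed by the cultures themselves. Of 24 listed, 15 were tested, and Fga, Fgb and Fgg, the fibrinogen chains, had 0 counts throughout. In mutant against WT cells 4 were lower and 2 higher, against 14.7% and 16.9% of all genes tested. Vcam1, the ligand of VLA-4, fell from 9.48 ± 3.53 to 3.48 ± 0.111 CPM and Icam4 from 4.69 ± 1.17 to 2.49 ± 0.333 CPM, while the laminin chain Lamc1 rose from 37.5 ± 2.40 to 48.0 ± 3.90 CPM (edgeR adjusted p of 0.00205, 0.00542 and 0.00916). Spp1, encoding osteopontin, rose from 104 ± 22.0 to 150 ± 9.44 CPM (edgeR adjusted p = 0.0243, held in 5 of 9 fits that left out 1 library and lost with the length and GC correction, at 0.0541). With SHP099 the laminin chains Lamc1 and Lama5 fell to 39.2 ± 3.34 and from 73.3 ± 16.5 to 46.3 ± 8.35 CPM (edgeR adjusted p of 0.0273 and 0.0309; held in 5 and 4 of the 9 fits that left out 1 library), and none was called higher. Over all genes tested, 13% were lower and 8.81% higher with SHP099. The paired fit called 6 of 14 ligand genes higher and 4 lower, and the length and GC correction none (Lamc1 at -0.13 and Lama5 at -0.37, adjusted p of 0.298 and 0.236).

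Selectins and their ligand genes, which act before integrins when leukocytes roll on vessel walls, were all tested. In the mutant 2 of 10 were higher and none lower, against 16.9% and 14.7% of all genes tested. Glg1 rose from 101 ± 6.11 to 115 ± 3.76 CPM (edgeR adjusted p = 0.0147, held in 7 of 9 fits that left out 1 library). With SHP099 2 were higher and 1 lower, against 8.81% and 13% of all genes tested. Selplg, encoding the P-selectin ligand PSGL-1, rose from 224 ± 11.1 to 270 ± 6.09 CPM (log2 fold change 0.27 ± 0.05, edgeR adjusted p = 0.00345). The sialyltransferase St3gal4 rose from 83.4 ± 2.38 to 94.9 ± 5.80 CPM, and Glg1 fell to 87.4 ± 1.81 CPM (edgeR adjusted p of 0.0202 and 0.000781). The Selplg and Glg1 calls with SHP099 held in all 9 fits that left out 1 library, and that of St3gal4 in 7. St3gal4 lost its call with the length and GC correction (adjusted p = 0.0853), and the paired fit called 5 of the 10 higher and 1 lower.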

How the data were processed

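RNA was prepared with a stranded mRNA kit, per the labels' protocols. The authors deposited raw counts per gene symbol, from tools and a build that the submitters' processing notes list, without versions, as FastQC, STAR, featureCounts, Subread and mm10. Neither the annotation nor the strand option used to count is stated, so reads of overlapping antisense genes cannot be told apart.

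Counts were filtered (filterByExpr, minimum count 10; 11151 of 24421 symbols left out), scaled by TMM and fitted over all 9 libraries with a mean per group in edgeR 4.0.16 (R 4.3.3; glmQLFit, glmQLFTest, two-sided), with Benjamini-Hochberg adjustment over all genes tested. Transcript lengths and positions are from GENCODE M21 on GRCm38, and 23376 symbols had a length. Ratios within a library used exact permutation tests. DESeq2 1.42.0 was an alternative. The scripts were tested on simulated data, where the paired fit of 6 libraries made more false calls than its threshold allows. The simulated counts held no effect shared within pairs. They therefore cannot show the rate of false calls of that fit in these paired libraries, which was not measured.

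Per the series design, separate mice gave the mutant cultures. For WT the labels name none, and p-values then measure the spread between these samples. Chi-square per degree of freedom between replicates was 10.5 to 24.4, above sampling noise, apart from the comparisons with SHP099 replicate 3. Those stood at 107 and 110. That library is the one high in Rn45s, which was among the genes used, and the part of Rn45s in these values was not tested. Deviations from group means correlated across genes at 0.54, 0.6 and 0.56 between same-numbered vehicle and SHP099 libraries of the mutant and at -0.36 to -0.23 between different numbers, so these numbers, from the sample titles, were taken as pairs.

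The members and gene lists were chosen with earlier results of these data known. Named were all 9 members, up to 4 called genes of each list with the smallest p in the first 2 comparisons plus genes with a stated role, the genes most correlated with each member (predicted models left out), and Tet2; some genes the rule names are not reported here.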

Additional observations from a re-analysis of the deposited data

How the results depend on the processing

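Of 477 log2 fold changes of members under an alternative, 414 kept direction and side of the threshold, 34 passed it newly, 17 lost it and 12 reversed, all of values not called in the reported fit. Itga6 and Itgb2 in mutant against WT cells and Itga5 with SHP099 stayed called in every alternative run. In SHP099 against vehicle 2890 genes and 2 members were called. Leaving out 1 library gave 1767 (without SHP099 replicate 3) to 2976 genes and 1 to 2 members. The replicate block in the 6 mutant libraries, an alternative chosen after seeing the data, gave 5563 genes and 8 members, and with the length and GC correction 5243 genes and 8 members, where Itga4 reversed to 0.14, as it did with that correction over 9 libraries, blocked or not (0.14 each, not called). Over all 9 libraries the replicate block gave 2879 genes and 3 members, Itgal being added. The length and GC correction gave 2201 genes and 1 member, and 1 member also with that block. In mutant against WT cells, 4199 genes and 2 members were called, with 2 to 4 members on leaving out 1 library, 3932 genes and 5 members (Itgb2, Itga6, Itgam and Itgb1 lower, Itga5 higher) with the length and GC correction, 3994 and 5 with the block added, and 4161 genes and 3 members with the replicate block alone. In SHP099-treated mutant against WT cells, 4209 genes and 3 members were called, with 2 to 5 members on leaving out 1 library, 3412 genes and 1 member with the length and GC correction, 3496 and 1 with the block added, and 4261 genes with the replicate block. WT numbers do not pair with the mutant, so those blocks share only a number. The cause of these shifts was not tested. Leaving out 1 library took the log2 fold change across 0 for Itgax (-0.25 to 0.17) and Itga4 (-0.16 to 0.0185) in mutant against WT cells and for Itgam (-0.25 to 0.0027) and Itgb7 (-0.17 to 0.0835) in SHP099-treated mutant against WT cells, where Itgb7 was at 0.0369 with the length and GC correction and 0.0459 with the block added. Another transcript length rescales subunit ratios alike in all groups (shares of the CD11 sum aside). With 3 libraries a group no ratio can reach an exact permutation p below 0.1, and Itgax, at 158 to 354 reads, had the largest SE of the 9.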
